A study of Mus musculus with 24 samples.

Results

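Genes of the heat shock, unfolded protein and oxidative stress responses were followed in mouse bone marrow macrophages with and without MAPKAP kinase-2 (MK2, gene Mapkapk2). The set holds 36 genes, chosen by symbol and all found among the 54429 gene symbols in the tables. It is made of 9 cytosolic chaperones, 3 mitochondrial chaperones, 11 chaperones and regulators of the endoplasmic reticulum (ER), 6 genes of the ATF4 branch and 7 targets of the factor NRF2. In all, 34 of the 36 had enough counts to be tested. The cells came from the femurs and tibias of C57BL/6N mice that were MK2 WT or MK2 KO, and bone marrow cells of all groups grew in M-CSF (10 ng/ml) until they were replated on day 7. Cells of each genotype were then left unstimulated (M0) or given IL-4 at 10 ng/ml (M2), a cytokine that drives alternative activation, and all were harvested 24 h later. There were 6 libraries in each of the 4 groups. The sources used here do not say which part of the Mapkapk2 gene is missing in the knockout, nor where each replicate came from, so p-values measure only the spread between these samples, which may be technical.

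Chaperones bind proteins that are unfolded or misfolded and help them fold. The cytosol, the mitochondria and the ER each hold their own set, and the cytosolic set is induced by heat shock factor 1. When unfolded proteins build up in the ER, the sensors IRE1, ATF6 and PERK raise ER chaperones through XBP1 and ATF6, and raise ATF4, which turns on genes of amino acid supply and of stress. NRF2 raises genes of glutathione and thioredoxin metabolism when cells meet oxidants. The small heat shock protein encoded by Hspb1 is a known substrate of MK2. Macrophages given IL-4 secrete many proteins, and ER chaperones serve the folding of secreted and membrane proteins.

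Total counts ran from 7893809 to 13492507 per library. Mapkapk2 stood at 119 ± 13.9 CPM (library-scaled counts after TMM normalisation, mean ± SD, n = 6) in wild-type M0 and 120 ± 9.93 in wild-type M2, against 58.8 ± 2.88 and 54.0 ± 4.38 in the knockout, and no knockout library reached the lowest wild-type library. All 8 macrophage markers, such as Csf1r and Adgre1, were measured. Marker sums, here and below, are scaled by the total counts of each library alone, without TMM. The summed level of these 8 ran from 11423 to 19477 CPM in the 24 libraries. Its mean was 16374.1 CPM in wild-type M0 and 15213.5 CPM in wild-type M2, against 14296.1 and 12884.9 CPM in the knockout. Of the 8 markers, 1 was higher and 2 were lower in knockout in each state. The summed level of 15 stromal and fibroblast markers was 128 to 207 CPM in wild-type libraries and 9.26 to 31.1 CPM in knockout libraries, with Lum at 0 in all 6 knockout M0 libraries. In bulk samples, fewer cells of a type and less RNA per cell cannot be told apart. Library numbers in the labels fall into 3 ranges: replicates 4 to 6 of every group (12 libraries) lie in one, and 9 of the replicates 1 to 3 in another. A separate range holds 3 libraries, which are replicate 2 of M2 in both genotypes and replicate 3 of wild-type M0. Between the ranges of 12 and 9 libraries 0 of 34 stress genes differed by edgeR's quasi-likelihood test at an adjusted p below 0.05, where 3.53% of all tested genes did. At an unadjusted p below 0.05, Hspa8, Hsp90ab1, Hspa9, Hsp90b1, Calr, Pdia3, Pdia4, Dnajb9 and Gclm were lower in the range of 12 libraries. Gadd45a was higher there. The log2 differences of these genes ran from -0.21 (Pdia4) to 0.11 (Gadd45a), and the smallest adjusted p was 0.0820 (Pdia3, edgeR).

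The levels were compared between genes per length, in the deposited GETMM signal, which is scaled for gene length and library. In wild-type M0 cells 27 of the 36 genes lay above the median of tested genes, 15.6 GETMM, and 19 lay among the top 10% of tested genes. Hspa8, the constitutive cytosolic Hsp70, was highest at 1585 ± 85.5 GETMM. Calr, which encodes calreticulin, a chaperone of ER glycoproteins, followed at 1259 ± 127 GETMM. The inducible Hsp70 genes lay at the other end of this scale, Hspa1a at 0.987 ± 0.164 and Hspa1b at 0.985 ± 0.493 GETMM. Hspb1 was likewise low at 1.15 ± 0.760 GETMM, and Ddit3, which encodes the factor CHOP, was listed at 0 in all 24 libraries. GENCODE M21 holds 2 overlapping entries under the symbol Ddit3.

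**Figure D1:**
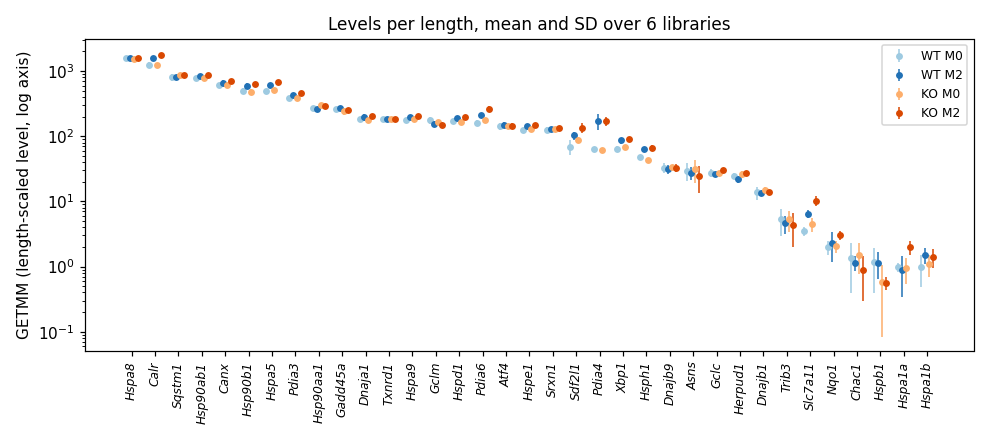
Level per length of the 35 genes above 0, in GETMM on a log axis, as mean and SD over 6 libraries in each of the 4 groups, ordered by the wild-type M0 mean. Hspa8 and Calr lead and Hspa1a and Hspa1b come last; Pdia4 stands at 64.4 ± 1.56 GETMM in wild-type M0 and at 171 ± 46.3 GETMM in wild-type M2.

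Promoter sequence was read for the 31 of 36 genes in the RefSeq promoter table (build GRCm38.p6), in the 250 bases before the transcript start and on both strands. Hspa8, Hsp90aa1, Hsp90ab1, Hspa9 and Gclc had no entry. Only the first listed start of each gene was used, and for 25 of the 31 the 50 bases from that start lie in a GENCODE M21 transcript of the gene. The ER stress response element, searched as CCAAT and CCACG separated by 9 bases, is a site through which ATF6 and XBP1 are known to act together with the factor NF-Y. It was found in 5 of 11 ER genes, in 0 of the 20 other genes of the set, and in 0.122% of all 27025 promoters in the table. These sites are shown because the ER genes carry most of the changes described here. Each is printed 5′ to 3′ on the strand that reads the element, with the matched letters in capitals.
Hspa5: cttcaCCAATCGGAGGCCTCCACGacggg
Hsp90b1 upstream: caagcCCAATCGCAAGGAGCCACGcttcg
Hsp90b1 downstream: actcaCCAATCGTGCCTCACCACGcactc
Calr: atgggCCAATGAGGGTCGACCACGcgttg
Canx: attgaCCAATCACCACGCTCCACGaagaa
Pdia6: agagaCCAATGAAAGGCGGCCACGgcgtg
The Hspa5 site lies at chr2:34772020-34772048 on the plus strand, within an exon of a GENCODE M21 transcript of Hspa5. The Hsp90b1 sites lie at chr10:86705633-86705661 on the minus strand and chr10:86705528-86705556 on the plus strand. The Calr site lies at chr8:84847070-84847098 (plus), the Canx site at chr11:50325795-50325823 (minus) and the Pdia6 site at chr12:17266486-17266514 (plus), and none of these 3 nor the Hsp90b1 sites overlaps a GENCODE M21 gene. Pdia4, Xbp1 and Sdf2l1 had no match to these letters in the window.

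A pair of further sites belongs to genes that rose outside the ER set. Slc7a11 encodes the cystine importer xCT, which supplies cysteine for glutathione, and it is a known target of both ATF4 and NRF2. The composite element bound by ATF4, searched as TGATGNAAN, was found in 4 of 31 genes of the set (Slc7a11, Asns, Chac1 and Herpud1) and in 3.51% of all promoters. Slc7a11 held 2 copies facing each other. The heat shock element, searched as GAA, TTC and GAA with 2 bases between each, was found only in Hspe1, the mitochondrial Hsp10, among the 31. In Hspe1 it stood as 2 overlapping matches on opposite strands. The element was found in 0.400% of all promoters and in 0 of the 6 cytosolic chaperones with a promoter. Sites beyond the 250 bases, or with other letters, were not searched.
Slc7a11: cTGATGCAAAcctggagaaTTTGCATCAt
Hspe1: gtccgTTCTAGAACCTTCCGGAAggccc
The Slc7a11 window lies at chr3:50443652-50443680 on the minus strand, 66 to 40 bases before the start, outside GENCODE genes. The Hspe1 window lies at chr1:55088054-55088081 on the plus strand, within an exon of Hspd1, the neighbouring Hsp60 gene on the opposite strand. The spacing of the STAT6 site, the factor activated by IL-4, searched as TTC and GAA separated by 4 bases, was matched in 1 of 31 (Chac1) and in 5.86% of all promoters. The antioxidant core, TGAC and GCA separated by 3 bases, was matched in 3 of 31 (Hsph1, Dnajb1 and Asns) and in 2.40% of all promoters, and in 0 of the 6 NRF2 targets with a promoter. The letters TGACGTGG, a core of the unfolded protein response element, were matched in 0 of 31 and in 0.503% of all promoters.

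The first comparison asked what IL-4 did in wild-type cells. ER chaperones rose: 7 of 11 ER genes were higher in M2 than in M0, and the oxidoreductase Pdia4 rose most. Outside the ER, the rises were Slc7a11, the cytosolic Hsp110 gene Hsph1 and the mitochondrial Hspe1. No ATF4 branch gene was called, and no gene of the set fell. In total 10 of 34 were higher and 0 lower by edgeR's quasi-likelihood test at an adjusted p below 0.05. Over all genes tested, 16.4% were called, 8.49% higher and 7.95% lower. The median log2 fold change was 0.33 over the ER genes, 0.09 over the 34 and -0.02 over all tested genes.

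Pdia4 encodes a protein disulfide isomerase of the ER (chr6:47796141-47813430, minus strand, mm10). Its level in wild type ran from 85.3 through a median of 87.3 to 91.9 CPM in M0, and from 178 through 211 to 329 CPM in M2. All 6 M2 libraries lay above all 6 M0 libraries. The rise was 2.64-fold, a log2 fold change of 1.40 ± 0.12 (SE), with an adjusted p of 8.55e-09 by edgeR.

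Hspa5 encodes BiP, the Hsp70 of the ER and a regulator of its stress sensors (chr2:34771970-34777547, plus strand). It ran from 673 through 723 to 758 CPM in M0 and from 850 through 895 to 993 CPM in M2. The groups did not overlap, and the rise was 1.26-fold (adjusted p = 4.86e-05, edgeR). Xbp1, the transcription factor spliced by IRE1, ran from 64.4 through 80.1 to 83.5 CPM and then from 90.9 through 98.6 to 116 CPM. It rose 1.33-fold with no overlap (adjusted p = 0.00025, edgeR). Gene counts do not separate its spliced from its unspliced form.

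Pdia6, an ER oxidoreductase that acts on IRE1, rose 1.32-fold, from 125 to 170 CPM in M0 to between 177 and 218 CPM in M2. Sdf2l1, a cofactor of BiP, had a log2 fold change of 0.58 ± 0.14, from 25.1 to 53.9 CPM up to between 56.7 and 82.8 CPM. Neither gene's groups overlapped. Calr ran from 950 through 973 to 1237 CPM in M0 and from 1185 through 1272 to 1427 CPM in M2. Hsp90b1, the ER Hsp90 called GRP94, ran from 726 through 768 to 946 CPM and from 885 through 908 to 1108 CPM. Calr rose by 0.33 ± 0.06 on the log2 scale and Hsp90b1 by 0.24 ± 0.07. Both had M2 libraries within the M0 range: the highest M0 library, replicate 1, stood at 1237 CPM for Calr and 946 CPM for Hsp90b1. The Hsp90b1 call was lost without M2 replicate 1 (adjusted p = 0.0633) or M2 replicate 3 (0.0505). It was also lost in a fit of the 2 groups alone (adjusted p = 0.0557, edgeR) and in replicates 1 to 3 (0.106) or 4 to 6 (0.0894) alone.

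The other 4 ER genes did not pass. Canx, which encodes the membrane chaperone calnexin, ran from 619 to 759 CPM in M0 and from 628 to 854 CPM in M2, a log2 fold change of 0.11. Pdia3, the partner of calnexin and calreticulin, ran from 532 through 541 to 635 CPM and from 577 through 611 to 716 CPM, a log2 fold change of 0.16 (adjusted p = 0.0526). The Pdia3 call appeared when any 1 of 4 libraries was left out (M0 replicate 1, M2 replicate 2, M2 replicate 6 or knockout M0 replicate 2, adjusted p 0.0146 to 0.0495). It also appeared in 7 of 13 alternative fits, among them DESeq2 (adjusted p = 0.0205) and limma on log2(GETMM + 1) (adjusted p = 0.0410). Dnajb9, an Hsp40 cofactor of BiP and a target of XBP1, had -0.08, and Herpud1, which acts in the removal of misfolded ER proteins, -0.18. Of the 5 ER genes with a response element in their promoter, 4 were called (Hspa5, Hsp90b1, Calr and Pdia6, not Canx), and of the 6 without one, 3 were called (Pdia4, Xbp1 and Sdf2l1).

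**Figure D2:**
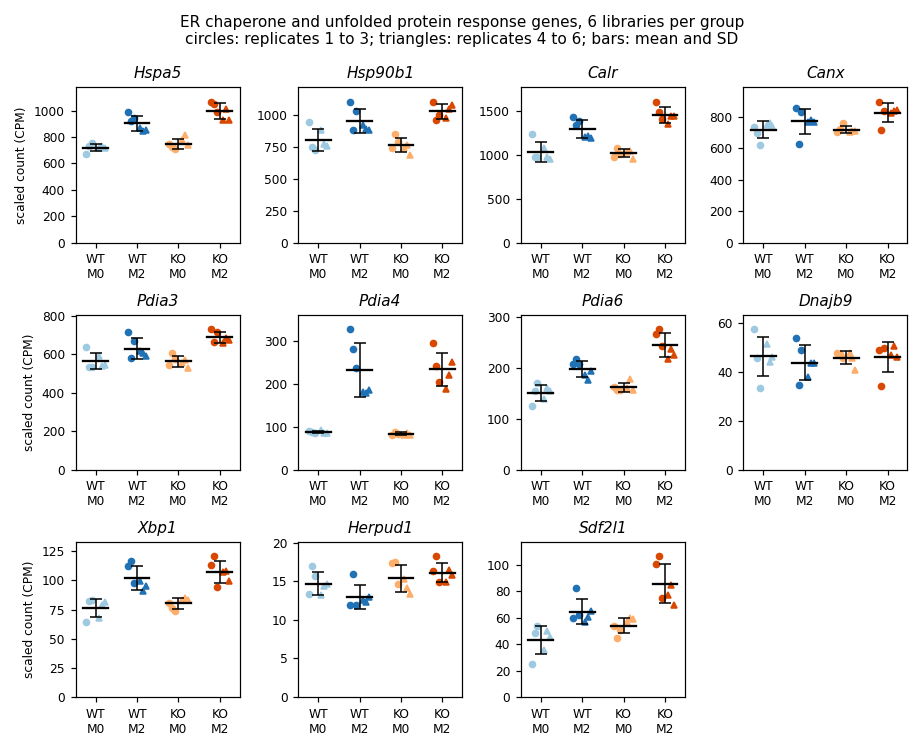
Scaled counts (CPM) of the 11 ER genes in every library, by group; circles are replicates 1 to 3, triangles replicates 4 to 6, and bars show mean and SD over 6 libraries. Pdia4 lies between 80.6 and 91.9 CPM in all M0 libraries and between 178 and 329 CPM in all M2 libraries, while Dnajb9 and Herpud1 overlap between groups.

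Among cytosolic chaperones, Hsph1, a nucleotide exchange factor of Hsp70, ran from 46.2 through 55.5 to 57.2 CPM in M0 and from 65.1 through 68.2 to 77.2 CPM in M2. It rose 1.29-fold with no overlap (adjusted p = 0.000329, edgeR). The other 7 tested cytosolic genes did not pass. Hspa8, Hsp90aa1, Hsp90ab1, Dnajb1 and Dnaja1 had log2 fold changes between -0.05 and 0.10. The values for Hspa1a and Hspa1b, -0.15 and 0.58, had wide 95% intervals of -0.98 to 0.68 and -0.04 to 1.20.

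The mitochondrial partners Hspe1 and Hspd1 form the Hsp10 and Hsp60 folding chamber, and Hspa9 is the mitochondrial Hsp70. Hspe1 rose 1.13-fold, from 52.4 to 58.9 CPM up to between 60.8 and 65.5 CPM, without overlap (adjusted p = 0.0130, edgeR). That call was lost in a fit without the count filter (adjusted p = 0.0809, edgeR) and in replicates 1 to 3 alone (0.270). Hspd1, at 190 to 223 CPM in M0 and 195 to 252 CPM in M2 (0.15, adjusted p = 0.0986), and Hspa9, at 264 to 301 and 286 to 326 CPM (0.13, adjusted p = 0.140), did not pass, and Hspd1 passed without M2 replicate 2 (adjusted p = 0.0170). Hspd1 and Hspe1 overlap head to head on opposite strands, and the sources do not say if strand was kept, so reads from the overlap cannot be told apart.

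None of the 5 tested ATF4 branch genes passed, with log2 fold changes between -0.27 and 0.06. They are Atf4 itself, the pseudokinase Trib3, the glutathione-degrading Chac1, the asparagine synthetase Asns and the growth arrest gene Gadd45a. Among NRF2 targets only Slc7a11 (chr3:49892526-50443614, minus strand) passed. It ran from 13.8 through 16.7 to 22.5 CPM in M0 and from 25.5 through 30.7 to 38.4 CPM in M2. It rose 1.84-fold with no overlap (adjusted p = 0.000125, edgeR). The other 6 NRF2 targets, Sqstm1, Txnrd1, Nqo1, Gclm, Gclc and Srxn1, lay between -0.20 and 0.24 on the log2 scale, and Gclm was the lowest (adjusted p = 0.107). Gclm passed, as lower, without M0 replicate 4 or M2 replicate 2 (adjusted p 0.0266 to 0.0369). Of all 34 genes, 8 had M2 libraries wholly above the M0 libraries, and 0 wholly below, where 4.75% and 3.41% of all tested genes did.

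Related genes outside the set were counted in the same way, beside the 8.49% higher and 7.95% lower of all tested genes. Of 32 other tested ER folding and unfolded protein genes, 14 were higher and 1 lower. The ER chaperone Hyou1 rose by 0.37 on the log2 scale, the sensor gene Ern1 (IRE1) by 0.30 and Edem2, which acts in the disposal of misfolded glycoproteins, by 0.41. The 1 that fell was Atf6, by 0.24, and Eif2ak3, which encodes PERK, did not pass (0.08). Serpinh1, the collagen chaperone Hsp47, had -0.14 and did not pass.

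Of 32 other tested cytosolic chaperone genes, 2 were higher and 3 lower, where 8.49% and 7.95% of all tested genes were. The lower 3 were the glucocorticoid-responsive Fkbp5 (-0.63), the Hsp90 activator Ahsa1 (-0.28) and the small heat shock gene Hspb6 (-0.82). Hsf1, which encodes heat shock factor 1, had -0.03, Bag3, a partner of Hsp70, 0.21 and Hspa4 0.09, none of which passed. Of 7 other mitochondrial genes, Grpel1, a cofactor of mitochondrial Hsp70, rose by 0.32, and Trap1, the mitochondrial Hsp90, had 0.10 and did not pass.

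Of 30 other ATF4 branch genes, 3 were higher and 1 lower, where 8.49% and 7.95% of all tested genes were. The transcription factor Atf3 rose by 0.62, Ppp1r15b, a regulator of the phosphatase of eIF2α, by 0.35 and Cebpb by 0.55, while Sesn2 fell by 0.33. Ppp1r15a (0.04), the kinase gene Eif2ak4 (-0.09) and the serine synthesis genes Phgdh (-0.11) and Psat1 (-0.03) did not pass. Of 30 other NRF2 and antioxidant genes, 8 were higher and 3 lower. Esd rose by 0.51, Ugdh by 0.30, Txn1 by 0.32, Hmox1 by 0.21 and Bach1, a repressor at NRF2 sites, by 0.21. Nfe2l2, which encodes NRF2, fell by 0.39. Keap1, which holds NRF2 in check (0.11), and Prdx1 (0.10) did not pass.

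Some markers of other cells moved with IL-4 as well, beside 8.49% higher and 7.95% lower of all tested genes. Of 13 tested stromal markers 1 was lower, and of 6 tested neutrophil markers 0 were called. The B cell, erythroid and megakaryocyte, mast cell and dendritic cell lists each gave 0 called of 2 tested. The summed level of 6 endothelial markers was 54.4 to 74.5 CPM in wild-type M0 and 128 to 184 CPM in M2. Of the 3 tested, 2 were higher and 1 had a negative log2 fold change, -0.45, that did not pass. The sum of 6 osteoclast markers was 38.0 to 44.4 CPM in M0 and 63.5 to 90.9 CPM in M2, and 4 of 4 tested were higher, with Calcr at 0 in all M0 libraries. Their part in the result was not tested.

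**Figure D3:**
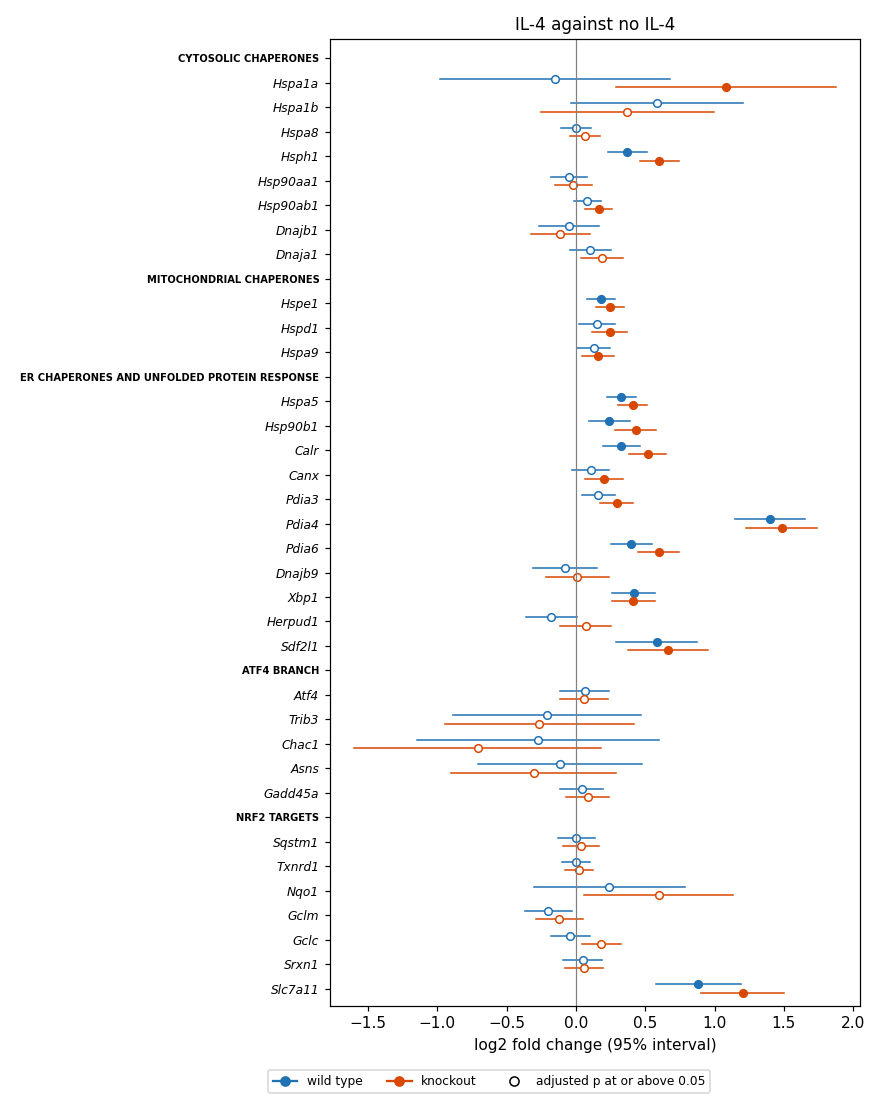
Log2 fold changes of M2 against M0 with 95% intervals for the 34 tested genes, in wild type (blue) and knockout (orange); filled symbols passed an adjusted p below 0.05. Filled symbols lie mostly in the ER block, and Pdia4 is farthest to the right at 1.40 and 1.48.

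The same IL-4 comparison was made in knockout cells. ER chaperones rose here too, 9 of 11, with Pdia4 again rising most. All 3 mitochondrial chaperones were higher, and 3 of 8 cytosolic chaperones, Hsph1, Hspa1a and Hsp90ab1. Slc7a11 rose, by 1.20 ± 0.15 on the log2 scale, as the only NRF2 target called in the fit of the 4 groups, in which 0 of 5 ATF4 branch genes passed. In total 16 of 34 were higher and 0 lower (edgeR, adjusted p below 0.05), beside 23.6% of all tested genes called, 12.2% higher and 11.4% lower. The median log2 fold change was 0.41 over the ER genes, 0.19 over the 34 and near 0 (-0.0038) over all tested genes.

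Pdia4 ran from 80.6 through 82.3 to 89.1 CPM in knockout M0 and from 189 through 232 to 295 CPM in knockout M2. It rose 2.79-fold with no overlap (adjusted p = 1.34e-09, edgeR). Slc7a11 ran from 14.9 through 22.2 to 27.4 CPM and then from 36.2 through 52.5 to 59.5 CPM, also with no overlap (adjusted p = 6.42e-07, edgeR). Calr ran from 952 through 1018 to 1077 CPM in M0 and from 1346 through 1434 to 1602 CPM in M2, a 1.43-fold rise with no overlap (adjusted p = 1.01e-06, edgeR).

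Hspa5 ran from 709 through 741 to 813 CPM in knockout M0 and from 928 through 1003 to 1070 CPM in knockout M2, a 1.33-fold rise. Hsp90b1 ran from 692 through 754 to 854 CPM and from 966 through 1026 to 1101 CPM, a 1.35-fold rise. For both chaperones every M2 library lay above every M0 library. Pdia6 ran from 156 through 159 to 178 CPM in M0 and from 218 through 241 to 277 CPM in M2 (1.51-fold). Sdf2l1 ran from 44.5 through 55.4 to 59.4 CPM and from 69.7 through 80.8 to 107 CPM (1.58-fold), and Xbp1 from 73.4 through 81.9 to 85.1 CPM and from 94.5 through 108 to 121 CPM (1.33-fold). None of these 3 overlapped between M0 and M2.

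The calnexin cycle genes rose by less. Pdia3 ran from 528 through 561 to 605 CPM in knockout M0 and from 659 through 680 to 731 CPM in M2, a 1.22-fold rise with no overlap. Canx ran from 701 through 708 to 762 CPM and from 714 through 836 to 895 CPM, a 1.15-fold rise with 1 M2 library, replicate 2, within the M0 range. The Canx call was lost without knockout M2 replicate 1 (adjusted p = 0.0695). It was also lost without the count filter (adjusted p = 0.0519, edgeR) and in replicates 1 to 3 alone (0.494). Dnajb9 had a log2 fold change of 0.01 and Herpud1 0.07, and neither passed. Of the 34 genes, 13 had knockout M2 libraries wholly above knockout M0, where 8.17% of all tested genes did, and 0 lay wholly below (5.82% of all).

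Hsph1 ran from 44.2 through 48.1 to 50.5 CPM in knockout M0 and from 61.5 through 73.4 to 83.5 CPM in knockout M2. The rise was 1.52-fold with no overlap (adjusted p = 2.27e-07, edgeR). Hsp90ab1, the constitutive cytosolic Hsp90, ran from 874 through 937 to 1016 CPM in M0 and from 1004 through 1043 to 1076 CPM in M2, overlapped between groups and rose 1.12-fold. Its wild-type libraries ran from 909 to 1054 CPM in M0 and from 987 to 1091 CPM in M2. The Hsp90ab1 call in knockout (adjusted p = 0.0122, edgeR) was lost without the count filter (0.0877) and in replicates 1 to 3 alone (0.488).

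Among mitochondrial chaperones in knockout, Hspe1 ran from 51.2 through 55.9 to 59.8 CPM in M0 and from 60.9 through 66.3 to 72.4 CPM in M2 (1.19-fold). Hspd1 ran from 187 through 205 to 218 CPM and from 218 through 243 to 256 CPM (1.18-fold), and Hspa9 from 254 through 284 to 323 CPM and from 299 through 319 to 342 CPM (1.12-fold). Hspe1 and Hspd1 did not overlap between groups, and Hspa9 did. The Hspa9 call (adjusted p = 0.0456) was lost without any 1 of 10 libraries: knockout M0 replicates 1, 4, 5 and 6, wild-type M2 replicate 3, wild-type M0 replicate 6 and knockout M2 replicates 1, 2, 3 and 6. Adjusted p was then 0.0515 to 0.127. Of 13 alternative fits the Hspa9 call held in 7. Among the losses were RLE factors (adjusted p = 0.0525, edgeR) and the 2 groups alone (0.0797, edgeR). It was also lost without the count filter (0.156, edgeR) and by limma on log2(GETMM + 1) (0.0773).

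Hspa1a (chr17:34969190-34972156, minus strand) ran from 0.600 through 1.83 to 2.35 CPM in knockout M0 and from 2.52 through 3.17 to 4.90 CPM in knockout M2. It rose 2.12-fold with no overlap (adjusted p = 0.0423, edgeR). The call was lost without any 1 of 10 libraries: wild-type M2 replicate 3, knockout M0 replicates 1, 2, 3 and 6, and knockout M2 replicates 1 to 5, with adjusted p 0.0506 to 0.104. It was also lost without the 3 libraries of the separate number range together (adjusted p = 0.0914, edgeR). M0 and M2 libraries of a genotype carry shared sample numbers in the labels. With these as a block in the fit the call was lost as well (log2 fold change 1.12, adjusted p = 0.0621, edgeR). Hspa1b, its neighbour and near copy, had medians of 1.83 and 2.38 CPM in these groups and did not pass. Of the 40-base windows of Hspa1a transcripts, 68.4% also occur in another gene, mostly Hspa1b, so how reads were split between them is uncertain. Summed over both genes, the level was 3.32 ± 1.14 CPM in knockout M0 and 5.60 ± 0.79 CPM in knockout M2 (log2 fold change 0.76 ± 0.20, adjusted p = 0.00638, edgeR). The same sum was 3.24 ± 0.82 and 3.89 ± 0.90 CPM in wild type (log2 fold change 0.26 ± 0.20, adjusted p = 0.440, edgeR).

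Sharing of sequence touches 8 genes of the set for over 20% of their 40-base windows, none of them an ER gene, and 14 genes share none. For Hspa8, Hsp90aa1 and Hspd1 the gene with most shared windows held at most 0.101% as many counts. For Dnaja1 that gene, Gm15542, held 40.0% as many counts as Dnaja1, so the Dnaja1 values are uncertain. Hspe1 shares 26.5% of its windows, 20.6% with AC117239.2, whose counts were not compared, so the split of Hspe1 reads was not checked. Dnaja1, an Hsp40 of the cytosol, had a log2 fold change of 0.19 with IL-4 in knockout (adjusted p = 0.0622), and passed when any 1 of 5 libraries was left out (wild-type M0 replicates 1 and 3, wild-type M2 replicates 1 and 2, knockout M2 replicate 2, adjusted p 0.0254 to 0.0485).

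In the ATF4 branch the fitted values in knockout lay between -0.71 (Chac1) and 0.09 (Gadd45a). Chac1, at 0.481 to 2.20 CPM in M0 and 0.336 to 1.49 CPM in M2, had an adjusted p of 0.276. Among NRF2 targets the ligase subunits Gclc (0.18, adjusted p = 0.0574) and Gclm (-0.12) and the quinone reductase Nqo1 (0.60, adjusted p = 0.104) did not pass, nor did Sqstm1, Txnrd1 and Srxn1, which lay between 0.02 and 0.06. Gclc passed when any 1 of 4 libraries was left out (wild-type M0 replicates 1 and 3, wild-type M2 replicate 2, knockout M0 replicate 4, adjusted p 0.0103 to 0.0485). With the shared sample numbers of M0 and M2 libraries as a block, Chac1 (-0.81, adjusted p = 0.0403, edgeR) and Asns (-0.34, 0.00359) passed as lower. Nqo1 (0.60, adjusted p = 0.0436, edgeR) then passed as higher.

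Related genes in knockout were set beside the 12.2% higher and 11.4% lower of all tested genes. They gave 17 higher and 1 lower of 32 other ER genes. Hyou1 rose by 0.53, Edem2 by 0.55, Creld2 by 0.53 and Ern1 by 0.32, Atf6 fell by 0.26, and Eif2ak3 (0.07) and Serpinh1 (-0.17) did not pass. Other cytosolic chaperone genes gave 4 higher and 4 lower of 32, with Bag3 up by 0.45, the chaperonin subunits Cct3 by 0.30 and Cct6a by 0.18, and Hsf1 (0.05) and Hspa4 (0.18, adjusted p = 0.0507) not called. Of 7 other mitochondrial genes 2 were higher, Grpel1 (0.44) and Trap1 (0.21).

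Other ATF4 branch genes gave 6 higher and 2 lower of 30, where 12.2% and 11.4% of all tested genes were. Atf3 was up by 0.67, Ppp1r15b by 0.42 and Ppp1r15a by 0.37. Eif2ak4 (-0.04), Phgdh (-0.22) and Psat1 (-0.07) did not pass. Other NRF2 and antioxidant genes gave 7 higher and 3 lower of 30, with Esd up by 0.64, Ugdh by 0.40 and Hmox1 by 0.40, and Nfe2l2 fell by 0.28. Keap1 (0.08), Bach1 (0.09), Txn1 (0.22) and Prdx1 (0.10) were not called. Of markers of other cells, 0 of 13 stromal and 0 of 6 neutrophil markers were called, and 1 of 2 B cell markers was higher. The erythroid and megakaryocyte, mast cell and dendritic cell lists each gave 0 called of 2 tested. The endothelial sum was 90.3 to 106 CPM in knockout M0 and 176 to 262 CPM in M2, though of the 3 tested markers 2 were higher and 1 lower (-0.89). The osteoclast sum was 27.8 to 54.1 and 56.0 to 100.3 CPM, and 4 of 4 tested were higher. Their part in the result was not tested.

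Whether the IL-4 response itself differed between genotypes was tested as a difference of log2 fold changes. No gene of the set passed (0 of 34), nor did any of all 12797 genes tested (0% called by edgeR). At an unadjusted p below 0.05 there were 4 of 34 (Hsph1, Hspa1a, Calr and Gclc) and 390 of all, and DESeq2 called 0 of 34 and 1 of all. All 10 genes called in wild type were also called in knockout, and 9 of those 10, all but Xbp1, had the larger fitted value in knockout. More of all tested genes were called in knockout too, 23.6% against 16.4% in wild type (edgeR). How many of all genes called in wild type share these 2 traits was not counted, so neither is shown to be particular to the set. Over the 34 the difference was positive in 27, with a median of 0.08, and over all tested genes it was positive in 6735, with a median of 0.01. The 6 genes called only in knockout are not shown to respond differently: for Hspa1a the difference was 1.23 (95% interval 0.08 to 2.38), for Pdia3 0.13 (-0.04 to 0.30), and for the other 4, Hsp90ab1, Hspd1, Hspa9 and Canx, between 0.03 and 0.09. For Pdia4 the difference was 0.08, with a 95% interval from -0.27 to 0.44. For Slc7a11 it was 0.32, with an interval from -0.10 to 0.75.

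**Figure D4:**
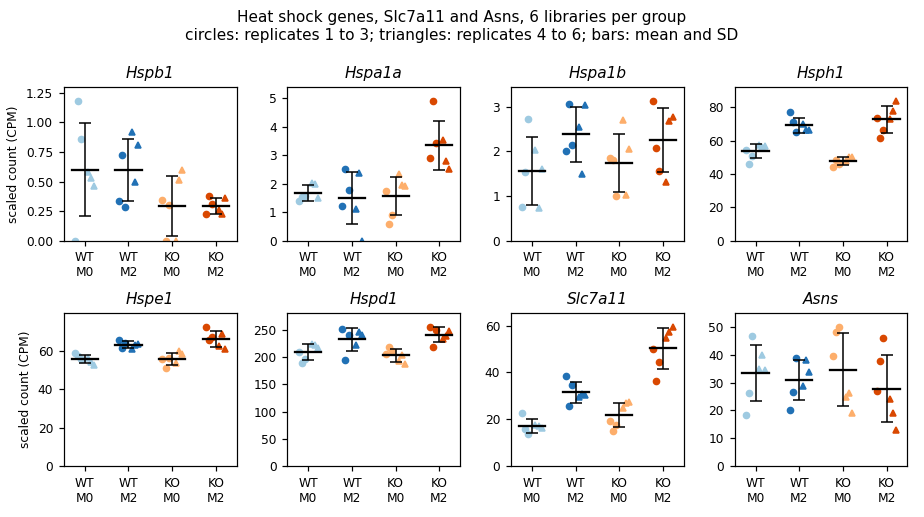
Scaled counts (CPM) of Hspb1, Hspa1a, Hspa1b, Hsph1, Hspe1, Hspd1, Slc7a11 and Asns in every library, by group; circles are replicates 1 to 3, triangles replicates 4 to 6, and bars show mean and SD over 6 libraries. Slc7a11 rises from M0 to M2 in both genotypes, and in knockout its replicates 4 to 6 lie above replicates 1 to 3 while Asns shows the opposite order.

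The knockout was next compared with wild type in unstimulated cells. No stress gene of the set was called. All 3 mitochondrial chaperones lay within 0.05 of 0 on the log2 scale, 9 of 11 ER genes within 0.10, and the largest fitted values were Slc7a11 (0.35), Sdf2l1 (0.32) and Hsph1 (-0.16). The count was 0 of 34 by edgeR at an adjusted p below 0.05, with 3 of 34 at an unadjusted p below 0.05, where 1928 of all 12797 genes lay, and 0 of 34 by DESeq2, and no gene's groups were free of overlap. Over all tested genes 4.52% were called, 1.1% higher and 3.42% lower, and 0.977% lay wholly higher and 2.50% wholly lower. The bounds these data allow are narrow for abundant genes: the 95% interval was -0.05 to 0.17 for Hspa5, -0.16 to 0.11 for Calr and -0.17 to 0.05 for Hspa8. They are wide for scarce ones, -0.91 to 0.75 for Hspa1a and -0.74 to 0.98 for Chac1.

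Hspb1 (chr5:135887919-135889563, plus strand), the gene for the MK2 substrate, had too few counts to be tested with the others. It ran from 0 through 0.555 to 1.18 CPM in wild-type M0 and from 0.281 through 0.613 to 0.916 in wild-type M2. In knockout it ran from 0 through 0.325 to 0.602 CPM in M0 and from 0.223 through 0.287 to 0.377 CPM in M2, so the genotypes overlapped in both states. Summed over 6 libraries, there were 36 counts in each wild-type group and 17 in each knockout group. The ratio of knockout to wild type, scaled for library size, was 0.457 without IL-4 (95% interval 0.240 to 0.834, exact binomial, covering counting error only) and 0.492 with IL-4 (0.259 to 0.900). In a fit without the count filter, edgeR gave log2 fold changes of -1.04 and -0.98 with adjusted p of 0.548 and 0.636. Of its 40-base windows 52.8% occur in other genes, mostly the pseudogene Hsp25-ps1. Over the 24 libraries Hsp25-ps1 held 16 counts, 15.1% of the 106 of Hspb1, and at most 5 in any library. How reads were split between them, and so the ratios above, is uncertain. Beside this, the stromal marker sums given above also differed by genotype, and their part in the result was not tested. Between M0 and M2 the ratio was 0.967 in wild type (0.592 to 1.58) and 1.04 in knockout (0.50 to 2.17).

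With IL-4 the knockout differed from wild type in 3 genes of the set, all higher: Slc7a11, Pdia6 and Herpud1. All 11 ER genes had positive fitted values, with a median of 0.13 on the log2 scale, and all 5 ATF4 branch genes had negative ones, with a median of -0.09, but among these 16 genes only Pdia6 and Herpud1 passed. Over all tested genes 6635 of 12797 were positive, with a median of 0.01. The count was 3 higher and 0 lower of 34 by edgeR at an adjusted p below 0.05. Over all tested genes 4.59% were called, 1.51% higher and 3.09% lower. The comparison uses the same knockout M2 libraries as the IL-4 comparison in knockout, so the values of these are not independent. All 13 tested stromal markers were lower in these knockout libraries (median -3.33). Of 3 endothelial markers 1 was higher, and 2 had negative values that did not pass. Of 4 osteoclast markers 2 were higher, and 1 had a negative value, -0.36, that did not pass. The part of these markers in the result was not tested.

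Slc7a11 ran from 25.5 through 30.7 to 38.4 CPM in wild-type M2 and from 36.2 through 52.5 to 59.5 CPM in knockout M2. Only knockout replicate 2, at 36.2 CPM, fell within the wild-type range, and the difference was 1.60-fold (log2 0.68 ± 0.14, adjusted p = 0.00331, edgeR). Pdia6 (chr12:17266545-17284770, plus strand) ran from 177 through 201 to 218 CPM and from 218 through 241 to 277 CPM. All knockout libraries lay above all wild-type ones, by a small margin at 218 CPM, and the difference was 1.23-fold (adjusted p = 0.0102, edgeR).

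Herpud1 (chr8:94386438-94395377, plus strand) ran from 11.9 through 12.5 to 15.9 CPM in wild-type M2 and from 14.9 through 16.1 to 18.3 CPM in knockout M2. The groups overlapped through wild-type replicate 2, and the difference was 1.24-fold (adjusted p = 0.0407, edgeR). Its M0 libraries ran from 13.2 to 17.0 CPM in wild type and from 13.4 to 17.5 CPM in knockout. This call was lost without any 1 of 10 libraries: wild-type M0 replicate 6, wild-type M2 replicates 1, 3, 4, 5 and 6, and knockout M2 replicates 1, 2, 5 and 6, with adjusted p 0.0503 to 0.110. It was also lost without the count filter (adjusted p = 0.130, edgeR) and in a fit of the 2 groups alone (0.0613). Left out in turn, wild-type M0 replicate 1 raised the count of called genes from 3 to 5 by adding Sdf2l1 (adjusted p = 0.0305) and Gclc (0.0160), and wild-type M2 replicate 2 also brought in Sdf2l1 (0.0418).

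Hspa1a and Gclc, the catalytic subunit of glutamate-cysteine ligase, lay wholly above wild type with IL-4 without passing edgeR's test. Hspa1a had a log2 difference of 1.15 (adjusted p = 0.105) with wild-type M2 at 0 to 2.51 CPM, and the sum of Hspa1a and Hspa1b had 0.52 (adjusted p = 0.182, edgeR). Hspa1a alone did pass by DESeq2 (1.16, adjusted p = 0.0249) and by limma on log2(GETMM + 1) (0.70, adjusted p = 0.0168). Gclc ran from 47.2 through 51.8 to 55.2 CPM and from 56.1 through 60.7 to 62.7 CPM (0.21, adjusted p = 0.105). With Pdia6 this makes 3 of 34 wholly above, where 1.09% of all tested genes were, and 0 wholly below (2.54% of all).

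**Figure D5:**
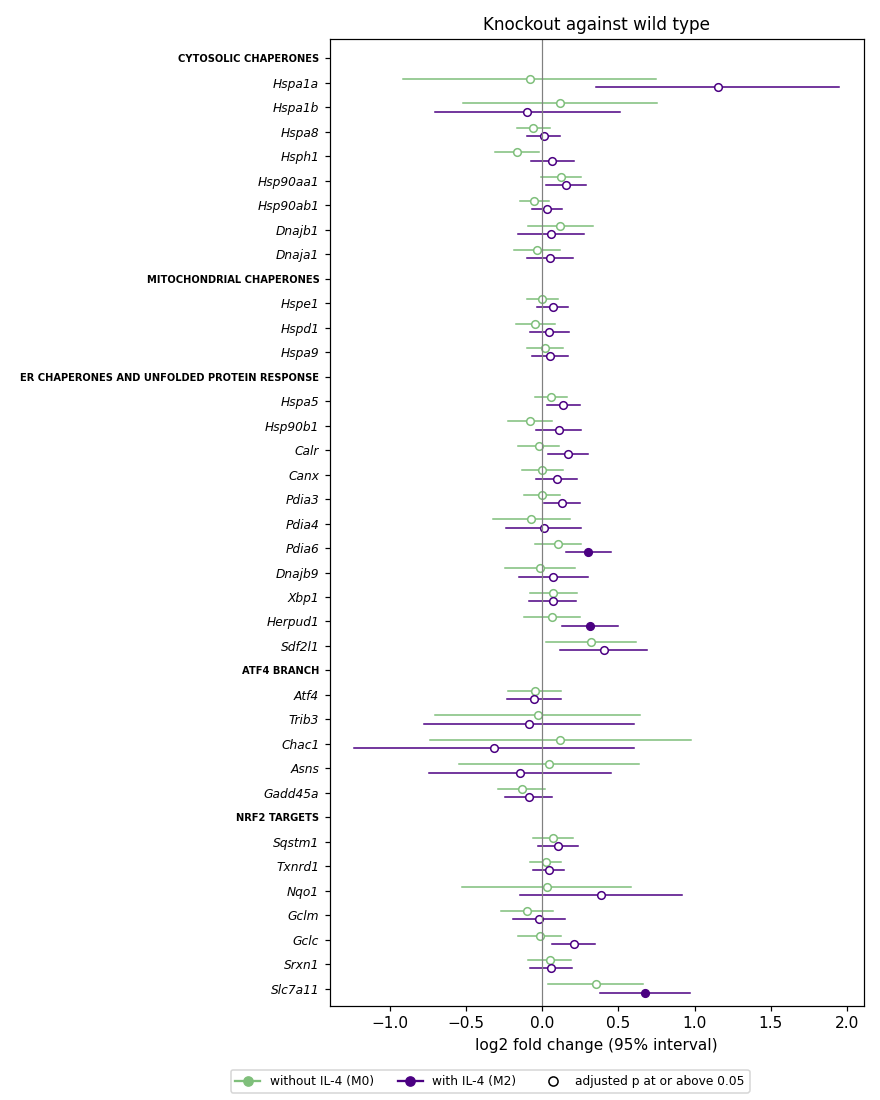
Log2 fold changes of knockout against wild type with 95% intervals for the 34 tested genes, without IL-4 (green) and with IL-4 (purple); filled symbols passed an adjusted p below 0.05. No green symbol is filled, and the purple filled symbols are Pdia6 (0.30), Herpud1 (0.31) and Slc7a11 (0.68).

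The genotype values differed between the replicate sets with separate library numbers. Slc7a11 in knockout M0 stood at 19.4, 14.9 and 17.4 CPM in replicates 1, 2 and 3 and at 25.0, 26.8 and 27.4 CPM in replicates 4, 5 and 6. In wild-type M0 the same 2 sets ran from 13.8 to 22.5 and from 16.4 to 17.5 CPM. Fitted on replicates 1 to 3 alone, knockout against wild type was 0.03 without IL-4 and 0.42 with IL-4 (adjusted p = 0.981 and 0.499, edgeR). On replicates 4 to 6 alone it was 0.64 and 0.92 (adjusted p = 1.89e-05 and 7.26e-08, edgeR).

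Asns, an ATF4 target, went the other way. In knockout M0 it stood at 39.7, 48.4 and 50.1 CPM in replicates 1 to 3 and at 24.7, 26.3 and 19.2 CPM in replicates 4 to 6. Its genotype value was 0.61 and 0.37 (without and with IL-4) in replicates 1 to 3, and -0.62 and -0.84 in replicates 4 to 6, of which only the last passed (adjusted p = 0.0224, edgeR). Atf4 had 0.16 and 0.17 in replicates 1 to 3, and -0.23 and -0.29 in replicates 4 to 6, where both passed (adjusted p = 0.00664 and 0.000848, edgeR). With IL-4, Trib3 and Chac1 had 0.47 and 0.41 in replicates 1 to 3 and -0.88 and -1.65 in replicates 4 to 6, none of which passed, and Gadd45a had -0.0048 and -0.17. Of the ER genes, Pdia4 and Dnajb9 were below 0 in replicates 1 to 3, at -0.19 and -0.04. Pdia6 and Herpud1 with IL-4 were alike in size in both sets, 0.31 and 0.29 for Pdia6 and 0.31 and 0.31 for Herpud1.

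Within replicates 1 to 3 alone, 0 of 34 genes were called in either genotype comparison, with 3 and 2 of 34 at an unadjusted p below 0.05 without and with IL-4. Over all 12844 genes tested there, 149 were higher and 284 lower without IL-4, and 77 higher and 228 lower with it (edgeR). Within replicates 4 to 6 alone, 2 were higher (Slc7a11 and Sdf2l1) and 2 lower (Atf4 and Hspd1) without IL-4. With IL-4, 9 were higher there (Slc7a11, Pdia6, Calr, Pdia4, Hsp90b1, Pdia3, Hsph1, Hspa5 and Gclc) and 2 lower (Atf4 and Asns). More of all 12797 genes were called in this set as well, 432 higher and 524 lower without IL-4, and 468 higher and 588 lower with it. The IL-4 rises of Pdia4 were present in both sets, at 1.70 and 1.06 in wild type and 1.54 and 1.41 in knockout, as were those of Slc7a11, at 0.95 and 0.84 in wild type and 1.34 and 1.11 in knockout. Whether the sets themselves differ in the genotype effect was not tested.

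Of the 131 tested related genes, 5 were lower and 0 higher in knockout without IL-4, and 4 lower and 2 higher with it, beside the 4.52% and 4.59% of all tested genes called in these comparisons. Of 32 other ER genes, 2 were lower in knockout in each state. Serpinh1, the collagen chaperone, fell from 9.76 ± 2.01 to 1.05 ± 0.30 CPM without IL-4 and from 8.91 ± 1.76 to 0.925 ± 0.438 CPM with IL-4, log2 differences of -3.21 and -3.24 (adjusted p = 3.3e-11 and 5.68e-11, edgeR). All 13 tested stromal markers were also lower in knockout in both states, with medians of -3.61 and -3.33, and their part in the Serpinh1 result was not tested. Wfs1, an ER membrane protein, fell by 0.81 and 0.69.

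Without IL-4, Hmox1, the heme oxygenase, was the only other NRF2 and antioxidant gene called of 30, lower by 0.27, and the ATF4 branch genes Atf5 and Ddit4 fell by 0.41 and 0.74 among 30. Other cytosolic and mitochondrial chaperone genes gave 0 of 32 and 0 of 7, with 7 and 0 at an unadjusted p below 0.05. With IL-4, Ahsa1 was higher by 0.30, Esd by 0.26, and Nupr1 and Vldlr fell by 0.82 and 0.92. Hsf1, Bag3, Hspa4, Trap1, Atf6, Ern1, Eif2ak3, Hyou1, Eif2ak4, Ppp1r15a, Atf3, Phgdh, Psat1, Nfe2l2, Keap1, Bach1, Txn1 and Prdx1 were called in neither state. Hyou1 with IL-4 came nearest among these (0.21, adjusted p = 0.0622, edgeR).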

How the data were processed

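RNA of 24 samples was read from one end over 40 bp, per the labels' protocols. The authors deposited expected counts, already rounded, and a length-scaled signal (GETMM), which equals the expected count times 1 factor per gene and 1 per library. Per the submitters' processing notes the tools were edgeR, Bowtie2 2.3.4.1, RSEM 1.3.0 and CASAVA 2.8.0, and the build was mm10. Genes were kept by filterByExpr at a minimum count of 10 (12797 genes, 99.8% of counts). Counts were scaled by TMM and tested by robust quasi-likelihood in edgeR 4.0.16 under R 4.3.3, in 1 fit of the 4 groups, with Benjamini-Hochberg adjustment over all genes tested and a threshold of 0.05. SE is the size of the log2 fold change over the root of F, and the script was tested on simulated data. Total counts of 7893809 to 13492507 per library set the precision, and intervals of counts cover counting error only.

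Members, lists and rules were chosen with earlier results of these data known. Each member is given by value or in a count with its range, with the levels of each group for those called in any comparison. Of 138 related genes, 20 are named whatever their result (Hsf1, Bag3, Hspa4, Trap1, Atf6, Ern1, Eif2ak3, Hyou1, Serpinh1, Eif2ak4, Ppp1r15a, Atf3, Phgdh, Psat1, Nfe2l2, Keap1, Bach1, Hmox1, Txn1 and Prdx1), and up to 3 per list and comparison with the smallest p past the threshold. Cebpb was named after its value was seen. No 2 libraries of a group agreed within sampling noise (smallest chi-square over its degrees of freedom 2.62). Alternatives were RLE factors, other count filters, library number range, replicate sets, 2-group fits, summed Hspa1 genes, replicate blocks, limma 3.58.1 on log2(GETMM + 1), DESeq2 1.42.0 and leaving out each library. Sequences are from RefSeq (GRCm38.p6), and positions and shared windows are from GENCODE M21.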

Additional observations from a re-analysis of the deposited data

Results flagged for a closer look

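In each group of 6 libraries, the highest and lowest library of every gene above 0 was set against the others, and a library was listed where its gap to the nearest one took more than the 95% limit of Dixon's test as a share of the whole range. Of 140 gene and group combinations 9 were listed, and chance lists about 1 in 20. Wild-type M2 replicate 2, a library numbered apart, accounts for 4 of the 9: Hsp90aa1 was lowest there at 337 CPM, with the others at 424 to 447, and Herpud1 (15.9 CPM), Sdf2l1 (82.8 CPM) and Sqstm1 (601 CPM) were highest there. Without this library the count of genes called with IL-4 in wild type was 13, against 10 with it. In knockout M2, Dnajb9 was lowest in replicate 2, also numbered apart, at 34.5 CPM. The other 4 were single libraries: in knockout M0, Canx was highest in replicate 3 at 762 CPM, Pdia6 was highest in replicate 5 at 178 CPM and Dnajb9 was lowest in replicate 6 at 41.0 CPM, and in wild-type M0, Gclc was highest in replicate 1 at 68.0 CPM.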

How the results depend on the processing

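Counts of called genes kept within 1.5 times of the main count for IL-4 in wild type under every alternative run (7 to 14, main 10), and stayed at 0 for the difference of responses. For IL-4 in knockout the count was 10 in replicates 1 to 3 alone (main 16). For knockout without IL-4 (main 0) it was 1 with library number range as a covariate and 4 in replicates 4 to 6 alone. For knockout with IL-4 (main 3) it was 6 with that covariate, 0 in replicates 1 to 3 alone, 11 in replicates 4 to 6 alone and 5 by DESeq2, while over all genes the higher and lower calls were 193 and 395 (main), 385 and 534, 77 and 228, 468 and 588, and 282 and 423 in the same order. Fewer libraries enter the fits of 3 replicates; otherwise the cause was not tested. Leaving out each library in turn gave 9 to 13, 13 to 18, 0 to 0, 2 to 5 and 0 to 0 for the 5 comparisons in that order (IL-4 in wild type, in knockout, knockout without and with IL-4, difference). Without the 3 libraries numbered apart the counts were 13, 16, 0 and 3, and 0 for the difference. Over single genes and alternatives 6050 values kept their side of the threshold, 65 were gained, 65 were lost and 0 called values changed direction. The 6050 include values called in neither fit whose direction changed. An example is Hspa1a with IL-4 in wild type, at -0.72 to 0.33 over the alternatives. Same-numbered libraries were not taken as pairs in the main fit, since the sources do not say where each replicate came from. Their deviations did correlate above 0.1 in 4 of 6 pairs of M0 and M2 in each genotype, and 4 of 6 correlated best with their own number. The highest correlation was 0.43 in wild type and 0.36 in knockout, against medians of -0.07 and -0.03 for libraries of unlike number. Same-numbered libraries of wild-type M2 and knockout M2, which share no sample number in the labels, reached 0.56. There 3 of 6 lay above 0.1 and 3 of 6 correlated best with their own number. Between wild-type M0 and knockout M0 it was 1 of 6 for each. The main fit leaves out any such pairing. With the replicate number as a replicate block the counts were 11, 15, 0, 3 and 0 in that order. The labels also give pairs of M0 and M2 libraries of a genotype a shared sample number, without saying what it stands for. With that number as a replicate block the counts were 12 and 19 for IL-4 in wild type and knockout and 0 for the difference. In knockout this block added Asns (log2 fold change -0.34, adjusted p = 0.00359) and Chac1 (-0.81, 0.0403) as lower and Nqo1 (0.60, 0.0436) and Dnaja1 (0.19, 0.0344) as higher, and Hspa1a was lost (1.12, 0.0621). In wild type it added Pdia3 (0.16, 0.0242) as higher and Gclm (-0.19, 0.0471) as lower. Depth limits Hspb1, Hspa1a, Hspa1b, Chac1 and Nqo1, at a few CPM or less.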

Other observations

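The spread between libraries of 1 group differed among these genes. The median coefficient of variation over the 4 groups was 57.4% for Chac1, 39.7% for Trib3, 34.7% for Hspa1b, 34.1% for Hspa1a and 33.9% for Asns. It was 4.69% for Hsp90ab1, 4.77% for Hspe1, 4.95% for Txnrd1 and 5.28% for Hspa8. The tested ATF4 branch genes lay at both ends, with 6.75% for Gadd45a and 10.3% for Atf4. Pdia4 in wild-type M2 stood at 329, 282 and 236 CPM in replicates 1, 2 and 3 and at 181, 178 and 187 CPM in replicates 4, 5 and 6, while its wild-type M0 libraries spanned 85.3 to 91.9 CPM. Over the whole series, Pdia4 differed between the library number ranges by -0.21 on the log2 scale and did not pass (adjusted p = 0.186, edgeR).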
